A study of Bos taurus with 32 samples.

Results

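Of the 672 bovine miRNAs on the array, 266 have a name from bta-miR-2281 to bta-miR-2489, with any suffix. Every miRNA of that range was taken, whether or not it was detected, except bta-miR-2286, bta-miR-2288 and bta-miR-2478. The remaining 406 miRNAs served for comparison, 368 of them with lower numbers and 35 numbered from bta-miR-2881 up. The miRNAs were measured in fat of 16 Hereford × Aberdeen Angus crossbred steers. The control steers ate a barley grain diet, and the steers fed the high fat diet had part of that grain replaced by flaxseed. All were castrated males of the same cross, slaughtered in the second year of life. From each steer, subcutaneous fat was taken from the backfat and visceral fat from around the kidney, which made 4 groups of 8 arrays.

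A miRNA is a short RNA cut from a hairpin precursor. It pairs with target mRNAs through bases near its 5′ end, the seed, and lowers their translation or stability. Numbers in miRNA names are given in the order in which the sequences were registered, so that widely conserved miRNAs found early carry low numbers. Many bovine miRNAs of this number range were registered from sequencing of bovine cells, and the family of bta-miR-2284 and bta-miR-2285 is among the largest in cattle. A star after the name marks the arm of the hairpin that was taken as the less abundant one when the name was given.

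The signal of a miRNA is the background-subtracted fluorescence summed over its probes, and it depends on the probes as well as on the amount of RNA, so that signals of different miRNAs do not give their relative abundance. A miRNA counted as detected on an array by the call of the scanner software, and a miRNA that was not detected has the signal 0.1. All arrays of 1 group lay on 1 slide and those of a diet went through 1 scan session, so that slide and group, and session and diet, cannot be told apart. The summed signal of all miRNAs ran from 26021 to 79290 in control steers (median 36984) and from 96888 to 366714 in steers fed the high fat diet (median 200545). The labelling spike-ins, which are added in equal amount to every sample, had medians of 3835 and 3250, and the local background had medians of 29 and 27.8. Diet differences are therefore given below both without scaling and after division by the 75th percentile of each array, and which of the scales is closer to the tissue was not tested. Markers of fat, such as bta-miR-143 and bta-miR-378, were detected on at least 1 array of every group, and the 5 listed made up 0.715 to 2.44% of the signal in control and 2.62 to 3.34% in high fat subcutaneous fat, and 1.19 to 2.57% and 2.68 to 3.81% in visceral fat. The 5 markers of skeletal muscle had median shares of 0 and 0.0290% in control and high fat subcutaneous fat and 0.00395 and 0.0361% in visceral fat, with 0.168% as the highest. The 3 markers of red blood cells made up 0.0415 to 0.164% and the 3 of white blood cells 0.0871 to 0.729%. The liver miRNA bta-miR-122 was not detected in subcutaneous fat and reached 0.290% in visceral fat. Of the 3 kidney markers, bta-miR-192 and bta-miR-194 were not detected on the control diet, and the list had medians of 0.112 and 0.172% in control and high fat subcutaneous fat and 0.0336 and 0.0865% in visceral fat. In both depots the median shares of the fat, muscle, kidney and white blood cell lists were higher on the high fat arrays and that of red blood cells lower, and their part in the diet differences was not tested. Fewer cells of a type and less RNA per cell cannot be told apart in whole tissue.

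Some arrays stood apart. By the correlation of each array's scaled values, across the 233 miRNAs tested, with the mean of the other arrays of its group and with the mean of the other depot of its diet, 4 control arrays were closer to the other depot. They were the subcutaneous arrays of steers 108 and 111 and the visceral arrays of steers 308 and 405. The subcutaneous array of steer 108 had r = 0.947 with its own depot and 0.977 with the other. The visceral array of high fat steer 302 had the most miRNAs of the range detected in its group. Results are given below with and without the arrays of steers 108 and 302 where these matter.

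Most of the miRNAs from bta-miR-2281 to bta-miR-2489 were not seen in fat. Of the 266, 63 (23.7%) were detected on at least 1 of the 32 arrays and 203 on none. Of the 406 other miRNAs, 232 (57.1%) were detected on at least 1 array. The share was 58.2% for the lower numbers and 42.9% for the numbers from bta-miR-2881 up. The miRNAs of the range were also detected less steadily once seen, since 11 of the 63 were found on all 32 arrays (17.5%), against 80 of the 232 others (34.5%). A further 10 of the 63 were found on 1 array alone. Arrays on which a miRNA is not detected give only an upper limit of its level, so the 203 are below detection here and not shown to be absent.

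Detection varied on both sides of the borders of the range. At its upper end, bta-miR-2487 was detected on 1 array, and bta-miR-2488 and bta-miR-2489 on none. Just outside it, bta-miR-2881 and bta-miR-2882 were detected on all 32 arrays and bta-miR-2883 on none. At the lower end, bta-miR-2284a, bta-miR-2284b and bta-miR-2284c were detected on none, and nor were bta-miR-1940 and bta-miR-1843, the nearest below, while bta-miR-1839 was detected on 20 arrays. The left-out bta-miR-2286, bta-miR-2288 and bta-miR-2478 were each detected on all 32 arrays, with median signals of 22.4, 54.9 and 21792.

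The number of miRNAs of the range detected per array was highest in subcutaneous fat of steers fed the high fat diet. There it ran from 33 to 48 with a median of 38, and in subcutaneous fat of control steers from 21 to 35 with a median of 30.5. Visceral arrays ran from 16 to 46 with a median of 27.5 on the high fat diet, and from 17 to 26 with a median of 22.5 on the control diet. In subcutaneous fat the diets overlapped between 33 and 35 miRNAs, and in visceral fat the high fat group spanned the whole control range. The means were 39.0 ± 4.93 and 29.4 ± 4.63 (SD, n = 8 each) in subcutaneous fat, and 28.5 ± 10.4 and 22.1 ± 2.80 (SD, n = 8 each) in visceral fat. The difference in means, 9.62 and 6.38 miRNAs, reversed to -11.1 and -8.62 when 1 limit on the scaled signal was set for all arrays. With 1 limit on the unscaled signal it kept its direction, at 10.75 and 7. The lowest scaled signal called detected had a median of -6.48 on control arrays and -9.07 on high fat arrays (log2), so that the call reached lower scaled signals on the high fat arrays.

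The other miRNAs of the array moved further in the same count. Their medians were 125 and 204 detected miRNAs in subcutaneous fat of control and high fat steers, and 106.5 and 180.5 in visceral fat. In percent of each class, the medians in control and high fat subcutaneous fat were 11.5 and 14.3 for the range, and 30.8 and 50.2 for the others. In visceral fat they were 8.46 and 10.3 against 26.2 and 44.5.

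**Figure D1:**
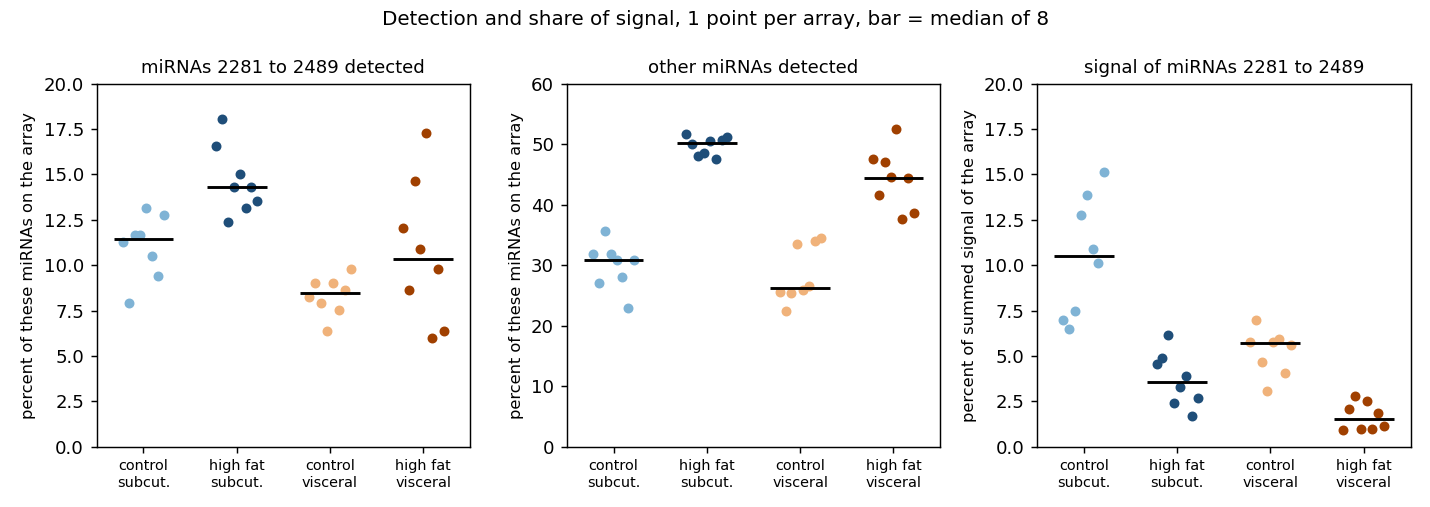
Percent of the miRNAs of the range detected per array, the same for the other miRNAs of the array, and the share of the summed signal held by the range, in the 4 groups. Each point is 1 array and each bar the median of 8 arrays. Detection in the range had medians of 11.5 and 14.3% on control and high fat subcutaneous arrays by the software's own call. That direction reverses with 1 common scaled limit and holds with 1 common unscaled limit. The share of signal was lower on the high fat arrays (medians 10.5 and 3.59%).

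Most of the 63 detected miRNAs were shared by the diets and the depots. Of these, 46 were found with both diets, 3 only in control steers and 14 only in high fat steers. Both depots held 47, subcutaneous fat alone 5 and visceral fat alone 11. All 4 groups held 31. Of the 232 other miRNAs, 158 were found with both diets, 3 only in control and 71 only in high fat steers, and 215 were found in both depots, 8 in subcutaneous and 9 in visceral fat alone. Detection in both depots thus covered 74.6% of the detected miRNAs of the range and 92.7% of the others.

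The visceral array of high fat steer 302 had 46 miRNAs of the range detected, and 16 of the miRNAs had their highest signal there. It also held 3 of the 10 that were found on 1 array alone. Without it, 60 miRNAs of the range were detected, and the mean per high fat visceral array was 26 ± 8.21 (SD, n = 7).

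The family of bta-miR-2284 and bta-miR-2285 has 28 miRNAs on the array, 24 with the first number and 4 with the second. Of these, 6 were detected on at least 1 array: bta-miR-2284d, bta-miR-2284h, bta-miR-2284k, bta-miR-2284l, bta-miR-2284m and bta-miR-2284t*. None of the 4 named bta-miR-2285 was. The most frequent was bta-miR-2284t*, on 17 arrays spread over 6, 4, 4 and 3 of 8 in control and high fat subcutaneous and control and high fat visceral fat. In contrast, bta-miR-2284d was detected on 5 high fat visceral arrays alone, with a highest signal of 88.5 on the array of steer 302. On the same array bta-miR-2284l had its highest signal, 56.8, and it was detected on 7 arrays in all. Members of a large family can share sequence, and the extent to which their probes share signal was not tested.

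For 36 hairpins the array had both arms within the range. Both arms were detected in 2 (those of bta-miR-2436 and bta-miR-2454), 1 arm in 15 and neither in 19. In 29 of the 36, 1 arm carries a star, and the star arm was detected on more arrays in 7, the plain arm in 7, and 15 were equal. The 7 were bta-miR-2284t*, bta-miR-2328*, bta-miR-2368*, bta-miR-2373*, bta-miR-2382*, bta-miR-2411* and bta-miR-2425*, and the plain arm was detected on 0 arrays in each. The star arms detected on all 32 arrays were bta-miR-2328*, bta-miR-2382*, bta-miR-2411* and bta-miR-2425*. The opposite pattern was seen for bta-miR-2483, bta-miR-2486 and bta-miR-2439, detected on 25, 26 and 20 arrays with the star arm on 0. For bta-miR-2454 the plain arm was detected on 20 arrays and the star arm on 1. Arms differ in their probes, so these are counts of detection and not ratios of the arms.

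Many of these miRNAs lie inside other genes. In a RefSeq gene table (assembly ARS-UCD2.0, used for names and neighbours only), 258 of the 266 could be matched and 197 of them (76.4%) lay within a protein-coding gene. The share was 72.9% for the matched miRNAs that were detected and 77.4% for those never detected. Examples are bta-miR-2305 in RIN2, bta-miR-2328* in ZNF821, bta-miR-2454 in DNMT1, the maintenance DNA methyltransferase, and bta-miR-2300a-5p in FLT1, a receptor for vascular endothelial growth factors. In these data no mRNA was measured, so the hosts' levels were not analysed here.

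A few miRNAs of the range were bright. By median signal over the 32 arrays, bta-miR-2305 ranked 10 of 672 (median signal 1317), bta-miR-2328* ranked 14 (806), bta-miR-2412 ranked 35 (266) and bta-miR-2332 ranked 49 (177). The next, bta-miR-2316 and bta-miR-2374, ranked 78 and 80 with median signals of 63.0 and 61.7. The range held 1 of the 10 brightest miRNAs, 2 of the 20 and 4 of the 50. The brightest after these were bta-miR-2483 and bta-miR-2474. These ranks pool the groups, and the distance to the other miRNAs differed between them. Over the miRNAs detected on all 32 arrays, the median of the median signals was 87.7 in the range and 88.2 in the others in control subcutaneous fat, and 182 and 717 in high fat subcutaneous fat. For visceral fat it was 31.8 and 63.9 in control steers, and 49.0 and 354 in high fat steers. Over all groups, median signals ran from 13.1 to 1317 in the range and from 7.55 to 21792 in the others.

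The range held a larger share of the signal in control steers than in steers fed the high fat diet. In subcutaneous fat its share ran from 6.51 to 15.1% with a median of 10.5% in control steers, and from 1.69 to 6.17% with a median of 3.59% in steers fed the high fat diet. The visceral share ran from 3.05 to 6.98% with a median of 5.71%, and from 0.914 to 2.77% with a median of 1.503%. Neither depot had an overlap between the diets, and in each diet the subcutaneous median was the higher one. The total includes the left-out bta-miR-2286, bta-miR-2288 and bta-miR-2478, whose median share was 1.61 and 34.3% in control and high fat subcutaneous fat and 2.97 and 43.4% in visceral fat. With these off the total, the medians for the range were 10.6 and 5.55% for subcutaneous and 5.92 and 2.78% for visceral fat. The ranges were then 6.75 to 15.3% and 2.54 to 9.30% in subcutaneous fat, which overlap, and 3.105 to 7.14% and 1.69 to 4.89% in visceral fat, which overlap too.

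Most of this share came from bta-miR-2305 and bta-miR-2328*. Together they made up 76.6, 68.6, 65.3 and 55.0% of the range's signal (medians of control and high fat subcutaneous and control and high fat visceral fat). In the medians, the summed signal of the range itself was not lower on the high fat diet. Its medians in control and high fat steers were 4693 and 8184 in subcutaneous fat, a ratio of 1.74, and 1792 and 2268 in visceral fat, a ratio of 1.27. The same ratios were 6.38 and 4.89 for the other miRNAs, and 4.15 and 2.89 for these without the 3 left-out numbers. In the medians, the range thus had more signal on the high fat arrays, but by a smaller factor than the rest of the array. The diets overlapped in both depots. The sums ran from 2057 to 8354 in control and from 5724 to 12037 in high fat subcutaneous fat. For visceral fat they ran from 1449 to 2722 and from 1087 to 7179, the highest on the array of steer 302.

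The brightest miRNAs differed in how the depots and diets lay. The unscaled signal of bta-miR-2305 ran from 875 to 4227 with a median of 2268 in subcutaneous fat of control steers, and from 2465 to 5760 with a median of 3679 on the high fat diet. The visceral values ran from 456 to 1088 with a median of 763, and from 341 to 2762 with a median of 797. The diets overlapped in both depots, while all high fat subcutaneous arrays lay above all control visceral arrays. For bta-miR-2328*, the signal ran from 520 to 2664 with a median of 1418 and from 1185 to 3142 with a median of 1851 in control and high fat subcutaneous fat. Visceral signals ran from 228 to 700 with a median of 435, and from 160 to 1408 with a median of 375. Its order of groups was close to that of bta-miR-2305, with subcutaneous fat above visceral fat in the medians of both diets.

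The signal of bta-miR-2412 ran from 105 to 781 with a median of 282 and from 435 to 1043 with a median of 723 in control and high fat subcutaneous fat. Values in visceral fat ran from 137 to 308 with a median of 184, and from 103 to 661 with a median of 246. The groups overlapped between diets in both depots. The signal of bta-miR-2332 ran from 50.5 to 245 with a median of 135 and from 192.1 to 424 with a median of 232 in subcutaneous fat. In visceral fat it ran from 42.6 to 218 with a median of 137, and from 131 to 344 with a median of 189, so that its depots lay close to each other within each diet.

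For bta-miR-2316 the signal ran from 29.3 to 136 with a median of 87.7 in control and from 184 to 333 with a median of 273 in high fat subcutaneous fat, with no overlap of the diets. The visceral signal ran from 21.6 to 41.8 with a median of 31.8, and from 36.7 to 241 with a median of 52.7. For bta-miR-2374 it ran from 25.7 to 127 with a median of 92 and from 131 to 244 with a median of 182 in subcutaneous fat, again with no overlap. In visceral fat it ran from 23.3 to 46.9 with a median of 33.8, and from 26.4 to 175 with a median of 49. Both were brighter in subcutaneous than in visceral fat in the medians of each diet.

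Some dim miRNAs had nearly the same median signal in every group. The signal of bta-miR-2382* had group medians of 26.7, 24.9, 24.7 and 24.9 in control and high fat subcutaneous and control and high fat visceral fat, and 18.6 to 32.8 over the 32 arrays. For bta-miR-2425* the medians were 13.8, 13.1, 12.4 and 12.8, and the values ran from 10.6 to 17.0. For bta-miR-2300a-5p they were 14.8, 13.6, 13.9 and 12.3, with 1 high fat visceral array on which it was not detected. Where it was detected, values ran from 6.53 to 18.3. The groups overlapped widely in all 3, although the summed signal of the arrays differed by several fold between the diets.

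**Figure D2:**
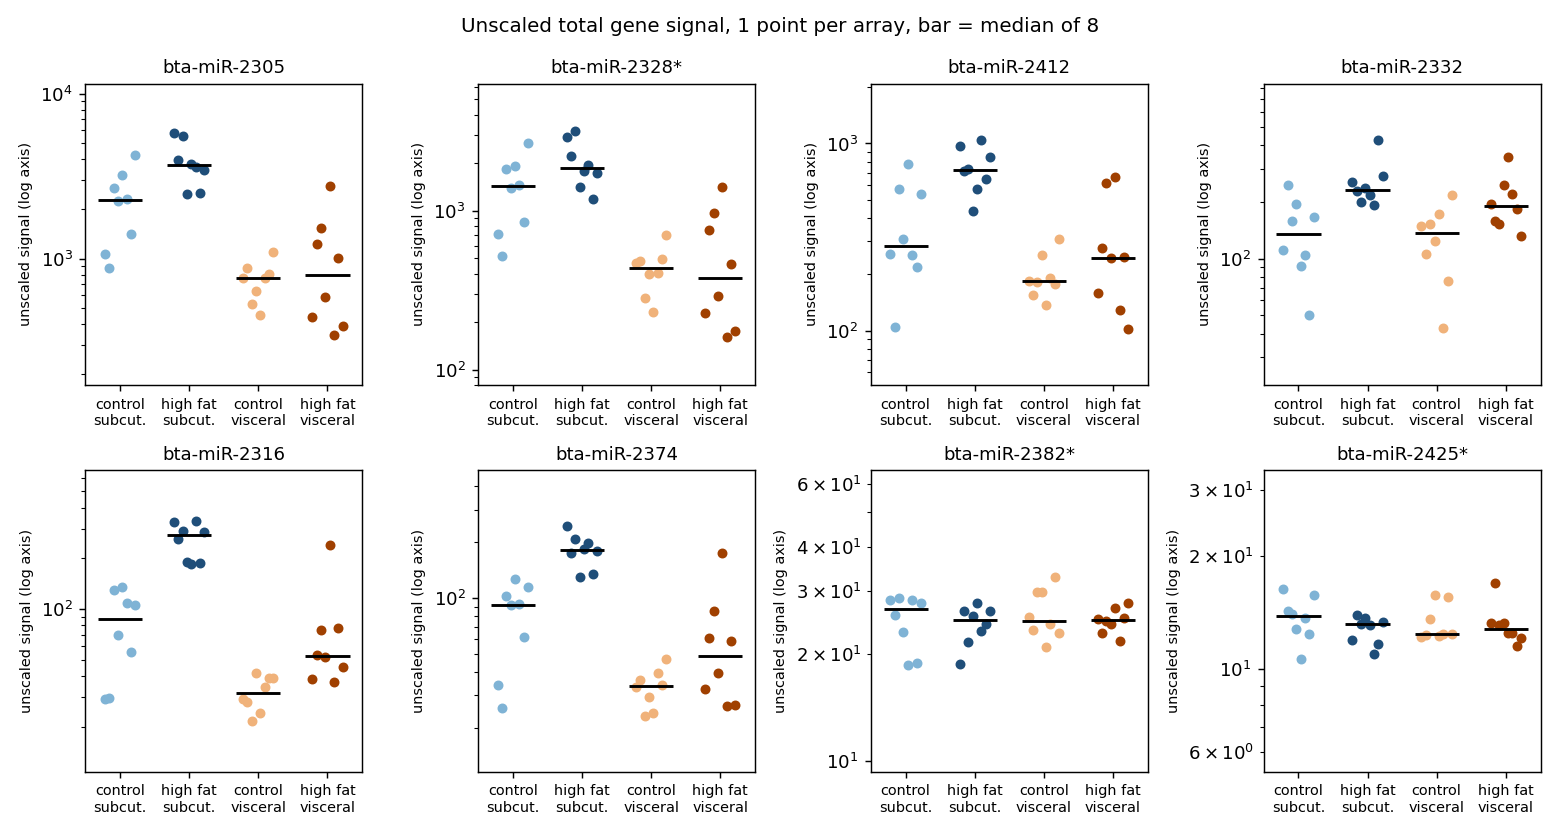
Unscaled signal of miRNAs of the range on a log axis, 1 point per array, bars at the median of 8 arrays, in control and high fat subcutaneous and visceral fat. Without scaling, bta-miR-2305 and bta-miR-2328* sat higher in subcutaneous than in visceral fat, and bta-miR-2382* held group medians between 24.7 and 26.7 on both diets.

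For the tests, each signal was divided by the array's 75th percentile, taken over the 91 miRNAs that all arrays detected, set to a common floor where lower, and taken as log2. Of the 266 miRNAs of the range, 39 were detected on at least 8 arrays and above the floor and entered the test, and the rest gave no test. In all, 233 miRNAs were tested. Adjusted p-values are from limma with Benjamini-Hochberg adjustment over all 233 miRNAs tested, and a difference counted as called at an adjusted p under 0.05.

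After this scaling, miRNAs of the range were mostly lower in steers fed the high fat diet. In subcutaneous fat, 26 of the 39 were called lower and 2 higher, where 34.3% of all miRNAs tested were called lower and 41.6% higher. Of the tested miRNAs outside the range, 54 were lower and 95 higher. The median log2 difference, high fat minus control, was -1.27 for the range and 0.34 for the others. In visceral fat 19 were called lower and 3 higher, where 29.6% and 42.1% of all miRNAs tested were called, and 50 of the others were lower and 95 higher. The medians were -0.56 and 0.38.

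These directions hold on the scaled values only. Without scaling, 28 of the 39 were called higher and 2 lower in subcutaneous fat, where 85.8% of the 240 miRNAs then tested were called higher and 1.67% lower. In visceral fat 15 were higher and 1 lower, where 68.8% and 2.92% were called. The medians of the range were 1.17 and 0.60. Leaving out the scaling moved the median of all miRNAs tested from 0.10 to 2.41 in subcutaneous fat and from 0.17 to 1.63 in visceral fat. What kept its sign was the position against the rest of the array, since the median of the range lay below that of the others by 0.56 to 2.25 (log2) in subcutaneous fat and by 0.38 to 1.78 in visceral fat under the main and 7 other ways of computing the levels. The 2.25 came with the percentile taken over all miRNAs, undetected ones included. No scaling, the spike-ins and this percentile shift all miRNAs of an array alike. Apart from the floor and the set of miRNAs tested, they could not change this position, so they are no separate support for it.

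The miRNAs from bta-miR-2881 up, registered later still, also had scaled medians below 0. Of the 12 tested, 11 were called lower and 0 higher in subcutaneous fat, with a median of -1.33. In visceral fat 9 were lower and 0 higher, with a median of -1.34. The 179 tested miRNAs with numbers below the range had 41 lower and 94 higher with a median of 0.45 in subcutaneous fat, and 39 lower and 94 higher with a median of 0.58 in visceral fat.

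A part of the tested miRNAs was at the floor on many arrays, which can make a difference smaller or larger. The floor lay below the detection limit of many control arrays and above that of many high fat arrays. The 11 miRNAs of the range that were detected on all 32 arrays are therefore given apart. All 11 were called lower after scaling in both depots, with medians of -1.96 and -1.92 (log2). Of the 80 other miRNAs detected on all arrays, 41 were lower and 28 higher in subcutaneous fat and 39 were lower and 30 higher in visceral fat, with medians of -0.47 and -0.24. Without scaling the medians of the 11 were 0.95 and 0.50, and those of the 80 were 2.44 and 2.18. The 11 stood below the 80 in the median. Scaling shifts all miRNAs of an array alike, so that, apart from the floor, the other scale could not change this distance.

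**Figure D3:**
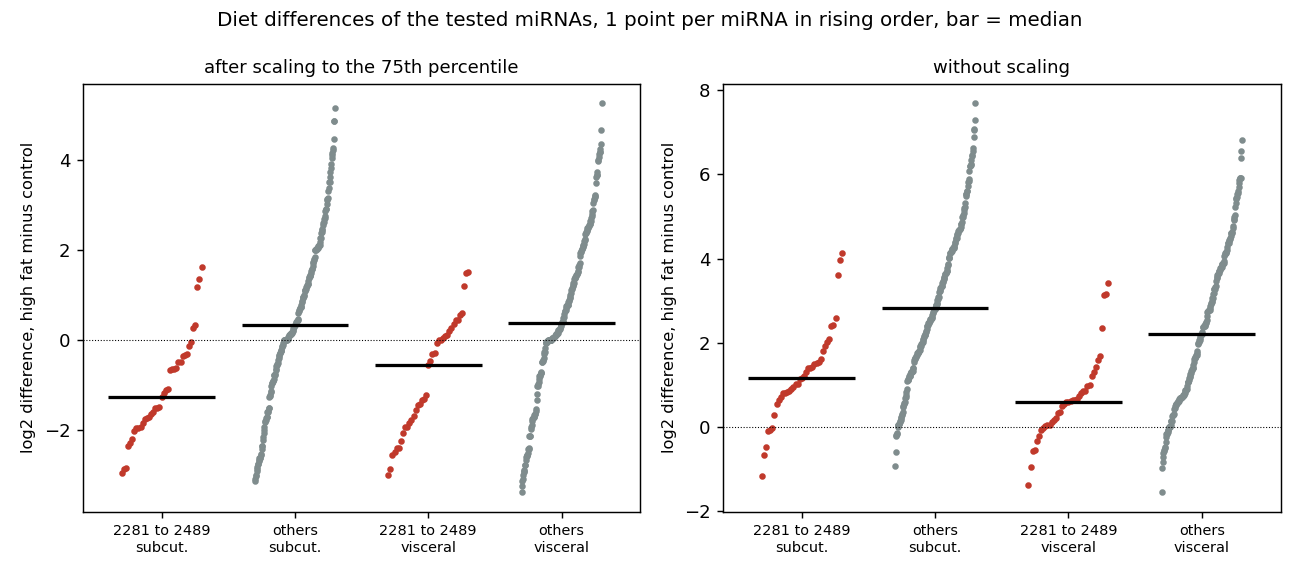
Log2 difference, high fat minus control, of the tested miRNAs of the range (red) and of the other miRNAs (grey) in subcutaneous and visceral fat, after scaling (left) and without it (right). Each point is 1 miRNA in rising order and each bar the median. The medians of the range were -1.27 and -0.56 after scaling and turned to 1.17 and 0.60 without it, below the medians of the others in each case.

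Some of the largest scaled falls belonged to the miRNAs whose group medians of unscaled signal lay close together. In subcutaneous fat bta-miR-2382* fell by 2.94 (SE 0.24, adjusted p = 1.51e-12), bta-miR-2425* fell by 2.87 (adjusted p = 6.2e-13) and bta-miR-2300a-5p fell by 2.85 (adjusted p = 3.53e-12) on the log2 scale. Without scaling the same differences were -0.03, -0.10 and -0.07. In visceral fat bta-miR-2382* fell by 2.48 (adjusted p = 7.44e-11) and bta-miR-2425* fell by 2.40 (adjusted p = 3.59e-11), with unscaled differences of -0.06 and -0.02. There bta-miR-2300a-5p fell by 2.86 (adjusted p = 4.43e-12), with 1 of 8 high fat arrays undetected. Its unscaled difference there was -0.56 and was called lower too (adjusted p = 0.0346). With scaling to the labelling spike-ins bta-miR-2382* and bta-miR-2425* turned to 0.22 and 0.15 for subcutaneous and 0.39 and 0.43 for visceral fat, and bta-miR-2300a-5p turned to 0.18 in subcutaneous fat.

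The brightest miRNAs, bta-miR-2305 and bta-miR-2328*, fell on the scaled values. Of their unscaled diet differences, only that of bta-miR-2305 in subcutaneous fat was called. For bta-miR-2305 the scaled difference was -2.01 (SE 0.31, adjusted p = 1.02e-06) in subcutaneous fat and -2.25 (adjusted p = 1.37e-07) in visceral fat, and the unscaled one 0.90 and 0.17 (adjusted p = 0.0192 and 0.668). For bta-miR-2328* it was -2.28 (adjusted p = 3.84e-07) and -2.41 (adjusted p = 1.32e-07), and unscaled 0.63 and 0.016 (adjusted p = 0.121 and 0.975). The scaled groups of 8 did not overlap for either in either depot. Across the range 9 of the 39 had no overlap with the high fat group lower, and 0 with it higher, in each depot. Of all miRNAs tested, 19.7% in subcutaneous and 18% in visceral fat had the high fat group lower without overlap, and 33% and 28.3% had it higher.

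Most calls were shared by the depots, which came from the same steers. Of the 39, 18 were called lower in both depots and 1 higher in both, and none was called in opposite directions. Of all 233, 65 were lower and 91 higher in both. The control arrays of the depots lay on different slides, but all control arrays were scanned in 1 session, and so were all high fat arrays.

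A small set was called higher on the high fat diet after scaling, in part only through the floor. In subcutaneous fat these were bta-miR-2483 and bta-miR-2384, and in visceral fat bta-miR-2384, bta-miR-2441 and bta-miR-2439. The unscaled signal of bta-miR-2483 was at most 24.5 in subcutaneous fat of control steers, with 4 of 8 arrays detected, and ran from 79.4 to 142.7 with a median of 97.6 on the high fat diet. The scaled signal was at least 2.38-fold higher (log2 difference 1.64, SE 0.70, adjusted p = 0.0339), and the unscaled difference was 4.15 (adjusted p = 2.04e-08). In visceral fat its signal was at most 50.7 with 5 of 8 arrays detected, and ran from 25.9 to 167 with a median of 77.4 on the high fat diet, and the scaled difference of 1.20 was not called (adjusted p = 0.124), while the unscaled one was 3.17 (adjusted p = 3.75e-06). With normexp correction and its offset of 50 the subcutaneous difference was -1.36.

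The next, bta-miR-2439, was detected on 2 of 8 control arrays in each depot and on all 8 high fat arrays in each. Its signal ran from 36.5 to 72.0 with a median of 45.8 in high fat subcutaneous fat, and from 3.68 to 103 with a median of 36.7 in high fat visceral fat. The control arrays reached 15.6 and 31.5. In visceral fat the scaled signal was at least 1.65-fold higher on the high fat diet (adjusted p = 0.0343), and in subcutaneous fat the difference of 1.17 was not called (adjusted p = 0.0911). Unscaled, bta-miR-2439 differed by 3.61 and 3.14 for subcutaneous and visceral fat, both called (adjusted p = 2.04e-07 and 3.29e-06). Likewise bta-miR-2474 was detected on 6 and 4 control arrays of 8 and on all high fat arrays, and its scaled differences of 1.36 and 1.52 were not called (adjusted p = 0.0907 and 0.0613), while the unscaled ones of 3.96 and 3.43 were (adjusted p = 8.57e-08 and 1.63e-06). The hosts of these miRNAs are TENM1 for bta-miR-2483, MRTFA for bta-miR-2439 and SHB for bta-miR-2474.

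For bta-miR-2384 and bta-miR-2441 no fold can be given. Neither was detected on any control array, and each was detected on all 8 high fat subcutaneous and 4 of 8 high fat visceral arrays. The signal ran from 5.76 to 22.8 with a median of 15.2 for bta-miR-2384 and from 5.58 to 21.5 with a median of 14.6 for bta-miR-2441 in high fat subcutaneous fat. The mean scaled signal of the high fat group lay below the mean detection limit of the control arrays in each call, so that the direction of the scaled difference was set by the floor.

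Of the range, bta-miR-2368* and bta-miR-2454 had been chosen by the study for qRT-PCR, which was not analysed here. The first was detected on 7 and 4 of 8 control and high fat subcutaneous arrays and on 6 and 4 visceral ones, and its highest signals were 13.0, 9.58, 12.2 and 13.5. The scaled difference between diets was -2.35 (adjusted p = 1.37e-05) in subcutaneous fat and -1.84 (adjusted p = 0.000311) in visceral fat. With undetected arrays in every group, these sizes depend on the floor. The unscaled difference was below 0 too, at -1.16 (adjusted p = 0.00752) in subcutaneous fat and -0.55 in visceral fat, where it was not called (adjusted p = 0.21). The groups overlapped at the undetected arrays in both depots.

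Between depots, more miRNAs of the range were called lower than higher in visceral fat, as was so over all miRNAs tested. On the control diet, 11 of the 39 miRNAs (28.2%) were called lower in visceral fat and 1 higher, where 12% and 6.87% of all miRNAs tested were called. The others had 17 lower and 15 higher. On the high fat diet 7 (17.9%) were called lower and 3 (7.69%) higher, where 14.6% and 11.6% were called. The share called lower was thus near that of all miRNAs on this diet. Of the others, 27 were lower and 24 higher. The median log2 differences, visceral minus subcutaneous, were -0.35 and -0.01 for the range and 0 and 0.04 for the others. The 6 miRNAs called lower in visceral fat on both diets were bta-miR-2305, bta-miR-2316, bta-miR-2328*, bta-miR-2348, bta-miR-2428 and bta-miR-2454, and 0 were called higher on both. Of all 233, 14 were called lower and 11 higher on both diets. Without scaling, 10 of the 39 were called lower and 0 higher on the control diet, where 10.4% and 0.833% of all were called. On the high fat diet 24 were lower and 0 higher, where 55% and 0.417% were called, and leaving out the scaling moved the median of all miRNAs from 0.02 to -0.83.

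The largest of the 6 differences was that of bta-miR-2348, whose hairpin lies in TMC6. In subcutaneous fat it was detected on all arrays, with signals from 8.65 to 61.6 and a median of 37.2 in control steers and from 98.7 to 229 with a median of 180 in steers fed the high fat diet. Visceral fat had it detected on 3 and 4 of 8 arrays, with signals of at most 19.3 and 84.1. The unscaled values of the depots overlapped in control steers and did not overlap in high fat steers. The scaled signal was at least 3.74-fold lower in visceral fat of control steers (log2 difference -2.89, SE 0.54, adjusted p = 0.000339) and the log2 difference on the high fat diet was -3.02 (adjusted p = 0.000133). The visceral sample was the lower one in 8 of 8 steers on each diet.

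For bta-miR-2454, signals in subcutaneous fat reached 31.4 with a median of 20.5 in control steers, 6 of 8 detected, and ran from 35.3 to 89.0 with a median of 50.3 on the high fat diet. The visceral samples had it detected on 0 of 8 control arrays and on 6 of 8 high fat arrays, with a median of 6.74 and a highest signal of 54.4. The scaled log2 difference, visceral minus subcutaneous, was -2.71 in control steers (adjusted p = 0.000109, lower in 6 of 8 steers). With undetected arrays in both depots, this size depends on the floor. On the high fat diet the log2 difference was -1.54 (adjusted p = 0.0147, lower in 8 of 8 steers). For the high fat steers its direction turned with normexp correction, to 0.25.

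The bright miRNAs bta-miR-2305 and bta-miR-2328* were lower in visceral fat by smaller factors. For bta-miR-2305 the difference was -1.10 (adjusted p = 0.0108, lower in 6 of 8 steers) on the control diet and -1.33 (adjusted p = 0.00277, lower in 7 of 8 steers) on the high fat diet. For bta-miR-2328* it was -1.23 (adjusted p = 0.00762, 6 of 8 steers) and -1.35 (adjusted p = 0.00347, 7 of 8 steers). Without scaling the differences were -1.48 and -2.20 for bta-miR-2305 and -1.60 and -2.22 for bta-miR-2328*, so that these 2 kept their direction on both scales.

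The calls of bta-miR-2428 and bta-miR-2316 depended on the model. For bta-miR-2428 the difference was -1.69 (adjusted p = 0.0167) on the control diet and -1.53 (adjusted p = 0.0273) on the high fat diet, and with the steer as a block the adjusted p was 0.0525 and 0.0661. For bta-miR-2316 it was -0.81 (adjusted p = 0.034) and -1.13 (adjusted p = 0.00338), and with the steer as a block the adjusted p on the control diet was 0.0787. On the high fat diet bta-miR-2374 was lower in visceral fat as well, with a difference of -0.93 (adjusted p = 0.0184).

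**Figure D4:**
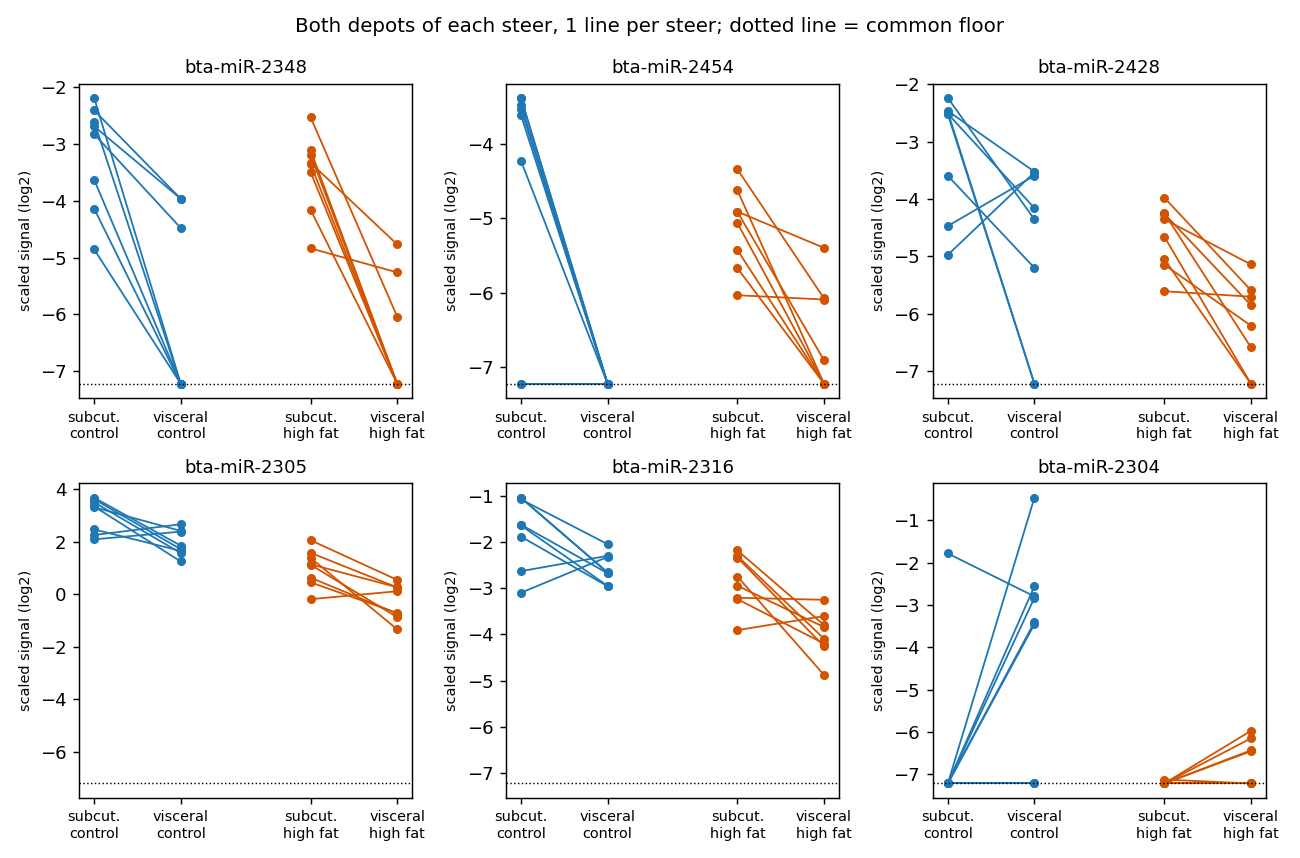
Scaled signal (log2) of miRNAs of the range in both depots of each steer, 1 line per steer, on the control and the high fat diet, with a dotted line at the common floor. The lines of bta-miR-2348 fell from subcutaneous to visceral fat in 8 of 8 steers on each diet, and those of bta-miR-2305 in 6 of 8 and 7 of 8.

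Only bta-miR-2304, whose hairpin lies in FRMD4A, was called higher in visceral fat of control steers. It was detected on 6 of 8 visceral arrays with signals of at most 111, and on 1 of 8 subcutaneous arrays, that of steer 108, with a signal of 72.9. With the other subcutaneous arrays at the floor, the difference was 2.80 (SE 0.74, adjusted p = 0.00708), a size that depends on the floor, and the visceral sample was higher in 5 of 8 steers. In high fat steers bta-miR-2304 was detected on 5 subcutaneous and 4 visceral arrays. Without scaling the depot difference in control steers was 2.08 and not called (adjusted p = 0.0606). The scaled difference between diets in visceral fat was -2.99 (adjusted p = 0.000599), with 4 of 8 high fat arrays undetected, and it was -1.37 and not called without scaling (adjusted p = 0.0895). In steers fed the high fat diet, those called higher in visceral fat were bta-miR-2382*, bta-miR-2425* and bta-miR-2391, with scaled differences of 0.91, 0.80 and 0.57 (adjusted p = 0.00526, 0.0083 and 0.0273). With the steer as a block bta-miR-2391 was no longer called (adjusted p = 0.0524). Without scaling the differences were 0.04, 0.04 and -0.30.

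The arrays that stood apart moved some of these counts. Without the subcutaneous array of steer 108, 15 of the 39 were called lower and 1 higher in visceral fat of control steers, and the difference of bta-miR-2304 was 3.48 (adjusted p = 0.000101), that of bta-miR-2454 -3.098, and that of bta-miR-2316 -1.01 (adjusted p = 0.00429). The diet call in subcutaneous fat was then 29 lower and 4 higher. Without the visceral array of steer 302, 2 were higher and 19 lower between diets in visceral fat, and 3 higher and 7 lower between depots on the high fat diet. Shares of all miRNAs called are not given for these fits, so the counts do not set the range apart. Without steer 108's array, the depot median in control steers was -0.41 for the range and 0 for all miRNAs tested. The subcutaneous diet medians were -1.29 and 0.05. Without steer 302's array, the visceral diet medians were -0.71 and 0.16.

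Under the main scaling, no depot difference of the range was shown to differ between the diets. The limma interaction test called 0 of the 39 at an adjusted p under 0.05, where 1.72% of all miRNAs tested were called. At an unadjusted p under 0.05 it had 7 of the 39, where 12% of all miRNAs tested passed. The test called 1 of the range higher with the deposited values, 1 higher when percentiles were taken over all miRNAs, and 1 lower without scaling or with spike-ins. With no overlap as the rule, 0 miRNAs of the range separated the depots on the control diet, where 0% of all tested did. In high fat steers 1 did, bta-miR-2424, with visceral fat lower, where 3.43% of all tested had visceral fat lower and 6.01% higher without overlap. It was detected on 8 subcutaneous and 4 visceral arrays, and its difference of -0.83 was not called (adjusted p = 0.179).

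Where the probes of a miRNA could be compared, their scaled differences mostly had the same sign. Of the 11 miRNAs of the range with at least 2 usable probes, the probes had the same sign in 11 for the diet difference in each depot, in 10 for the depot difference on the control diet and in 11 on the high fat diet. For the diet differences, scaling lowers all probes alike, so a shared sign there is in part set by the scaling. The median spread between probes was 0.08 (log2) in subcutaneous and 0.07 in visceral fat for the diet difference. The widest spread between probes was 1.31 (log2), for the diet difference of bta-miR-2411* in subcutaneous fat.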

How the data were processed

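Total RNA of subcutaneous and visceral fat was labelled with Cy3 and hybridised, 1 sample per array, to 32 Agilent bovine miRNA arrays with 20 spots for each of 672 miRNAs. Per the file headers, the authors extracted the scans with Feature Extraction 10.7.3.1 and deposited, for each spot, the background-subtracted intensity and, for each miRNA, the total intensity with a detection call, not scaled between arrays. They also deposited log2 values scaled in GeneSpring GX to the 75th percentile, where values under 0 were listed as 0. These list features by number, so each of the 244 features above 0 was matched by value to a miRNA. By this match, the deposited values were shifted down from the log2 total intensity on 18 of the 32 arrays. On the rest they carried no shift. No spot was saturated (0), and 3.30% of spots carried an outlier mark. The genome build behind the probes is not given in the sources used here.

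Diet, depot and steer were taken from the sample labels. The total intensity was divided by the array's 75th percentile over the 91 miRNAs detected on all 32 arrays, floored at 0.00671 (log2 -7.22) and taken as log2. At least 8 arrays detected 240 miRNAs, of which 233 rose above the floor on some array and were tested with limma 3.58.1 in R 4.3.3 (4 groups in 1 fit, lmFit and eBayes, two-sided, Benjamini-Hochberg over the 233). The fit was tested on simulated data. A difference is given as "at least" where 1 group had undetected arrays: these were set to their own limit, the lowest scaled signal detected on them, and the value of the brighter group was kept. No bound is given where it went past the difference of the floored values. Summaries used Python 3.11.15, numpy 2.4.6 and pandas 2.3.3.

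The alternatives tried were the percentile over every miRNA, no scaling, spike-ins, quantile normalization, normexp with an offset of 50, another floor, no filter, the miRNAs detected on all arrays, the deposited values, the steer or the place on the slide as a block, the methods' t-test with either correction, other rules of detection, and leaving out the subcutaneous array of steer 108. Leaving out the visceral array of steer 302 was chosen after seeing the data. Both samples of a steer number came from the same animal, which pairs the depots. The fit above has no steer term, and the block was run as an alternative. The correlation of their deviations ran from -0.391 to 0.652 and was above 0.1 in 5 of 16 steers.

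The miRNAs and lists were chosen with earlier results of these data known. Named were bta-miR-2368* and bta-miR-2454, the 8 brightest miRNAs of the range, in each contrast the 4 largest rises and the 4 largest falls past the threshold without overlap, any called by the interaction, and members of counts of 5 or fewer. Others were chosen after their values were seen. Steers were the replicates, and the precision was set by 8 arrays per group and, where signals were dim, by each array's detection limit. Host genes were read from the positions in a RefSeq gene table of another assembly, and no sequence of a miRNA was used here.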

Additional observations from a re-analysis of the deposited data

How the results depend on the processing

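The direction of the diet differences rests on the scaling, and dim miRNAs are limited by each array's detection limit. Leaving out the scaling, or scaling to the spike-ins, gave 28 and 31 members called higher between diets (high fat minus control) in subcutaneous fat (main 2) with 2 and 1 lower (main 26), and 15 and 18 higher in visceral fat (main 3) with 1 and 0 lower (main 19). Here member means a miRNA of the range from bta-miR-2281 to bta-miR-2489. The medians were then 1.17 and 1.42 in subcutaneous fat (main -1.27) and 0.60 and 0.81 in visceral fat (main -0.56). Under no scaling and under spike-ins the diet difference in subcutaneous fat turned to 0.90 and 1.15 for bta-miR-2305, 1.81 and 2.06 for bta-miR-2316, 0.63 and 0.89 for bta-miR-2328*, 0.95 and 1.21 for bta-miR-2332, 1.32 and 1.57 for bta-miR-2374 and 1.17 and 1.42 for bta-miR-2412. In visceral fat it turned to 0.17 and 0.62, 1.01 and 1.46, 0.016 and 0.47, 0.73 and 1.19, 0.65 and 1.11, and 0.36 and 0.82 in the same order. Not called without scaling were bta-miR-2328* in both depots and bta-miR-2305, bta-miR-2374 and bta-miR-2412 in visceral fat. With spike-ins bta-miR-2382* turned to 0.22 and 0.39, bta-miR-2425* to 0.15 and 0.43 (subcutaneous and visceral), and bta-miR-2300a-5p to 0.18 in subcutaneous fat. With normexp, bta-miR-2483 turned to -1.36 between diets in subcutaneous fat and bta-miR-2454 to 0.25 between depots on the high fat diet. The cause was not tested.

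Members called higher between diets in subcutaneous fat were 0 with percentiles over all miRNAs, normexp, only miRNAs detected on all arrays, the methods' t-test with Bonferroni correction and the deposited values, 1 with quantile normalization, and 4 without the subcutaneous array of steer 108. In visceral fat they were 0 under percentiles over all miRNAs, quantile normalization, normexp, only miRNAs detected on all arrays, Bonferroni and the deposited values. Members called lower were 11 with only miRNAs detected on all arrays, where 11 members were tested, and 12 with Bonferroni, in either depot, and in visceral fat 39 with normexp and 30 with a floor at a signal of 1. The medians were -2.32 with percentiles over all miRNAs, -2.23 with normexp and -2.39 with the deposited values in subcutaneous fat, and -1.78 with normexp and -1.69 with the floor at a signal of 1 in visceral fat. Percentiles over all miRNAs take in undetected ones, and the deposited values were shifted down on 18 of the 32 arrays only.

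Between depots on the control diet (main 1 higher, 11 lower), 0 were higher under no scaling, spike-ins, normexp, only miRNAs detected on all arrays and the t-test with either correction. Lower were 5 with spike-ins, 2 with normexp, 4 with only miRNAs detected on all arrays, 0 with Bonferroni and 6 with the Benjamini-Hochberg t-test. On the high fat diet (main 3 higher, 7 lower), higher were 1 with percentiles over all miRNAs, 0 under no scaling, spike-ins, Bonferroni and the deposited values, 31 with normexp and 5 with the Benjamini-Hochberg t-test. Lower were 24 under no scaling, 21 with spike-ins, 14 with the floor at a signal of 1, 2 with Bonferroni and 4 with the deposited values. The median there (main -0.01) was -1.10 under no scaling, -1.08 with spike-ins, 0.63 with normexp and -0.76 with the floor at a signal of 1. That of all miRNAs tested was -0.83, -0.53, 0.51 and -0.04 in the same order. The interaction (main 0) had 1 member higher with the deposited values and with percentiles over all miRNAs, and 1 lower under no scaling and with spike-ins.

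With the steer as a replicate block, which pairs the depots, 1 member was called higher and 9 lower in control steers, and 2 and 6 in high fat steers. It ended the calls of bta-miR-2428 on both diets (adjusted p = 0.0525 and 0.0661), of bta-miR-2316 on the control diet (0.0787) and of bta-miR-2391 on the high fat diet (0.0524). Members detected per array, high fat minus control, turned to -11.1 in subcutaneous and -8.62 in visceral fat with 1 scaled limit for all arrays, and to -11.1 and -4.5 by a deposited value above 0. With 1 unscaled limit for all arrays this difference kept its direction, at 10.75 and 7.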
